A study of Saccharomyces cerevisiae with 12 samples.

Results

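The genes described here encode the lipid kinases and phosphatases that make and remove phosphoinositides in Saccharomyces cerevisiae, together with the phospholipase C that cleaves one of them. They were taken by name, by a rule that uses no measured value although earlier results of these data were known, as 10 of the 6600 features of the count table: the kinases STT4 (YLR305C), PIK1 (YNL267W), MSS4 (YDR208W) and FAB1 (YFR019W), the phosphatases SAC1 (YKL212W), FIG4 (YNL325C), INP51 (YIL002C), INP52 (YNL106C) and INP53 (YOR109W), and PLC1 (YPL268W). All 10 passed the filter on low values that left 5909 genes to test, and their counts in single libraries lay between 260 and 2238.

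RNA was sequenced from the haploid laboratory strain BY4741 grown in the absence of PeAfpA, an antifungal protein of the mould Penicillium expansum, or in its continuous presence at 1, 2 or 4 µg/mL. Each of the 4 conditions had 3 replicate flask cultures, and all 12 were grown for 20 h at 30 °C in YPD 5%, a diluted rich medium with glucose. No other agent or allele separates the conditions. Every p-value measures the spread between these flasks, and a bulk measurement cannot tell a change in RNA per cell from a change in the makeup of the culture.

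Totals ranged from 7153797 to 10270183 counts. The labels name the material mycelia, although BY4741 grows as a budding yeast. The strain lacks LEU2, URA3 and MET17, and these had 0 counts in all 12 libraries, while HIS3, of which it keeps a part, had 381 to 649. The a-cell markers MFA1, MFA2, STE2, BAR1, STE6 and AGA2 summed to 3135 to 3870 TPM (transcript levels corrected for gene length and depth) in the controls and 6164 to 7147 TPM at 4 µg/mL. The 4 alpha-cell markers summed to 65.06 to 218.4 TPM over all libraries, as in a strain of mating type a. Most of the a-cell sum was MFA1 and MFA2 (947.4 and 1832 of 3135 TPM in control replicate 1). Single markers did not all follow the sums. In the controls the alpha-cell marker SAG1 (43.08 to 61.54 TPM) was above BAR1 (16.2 to 18.85) and STE6 (25.83 to 37.49). MF(ALPHA)1 (22.25 to 62.23) was above BAR1, while STE3 and MF(ALPHA)2 were below both. STE2 and AGA2 were above all 4 alpha-cell markers. Replicate 1 at 1 µg/mL and replicate 3 at 4 µg/mL stood apart from their replicates, with TMM scaling factors of 0.8458 and 0.8084 against 0.99 to 1.122 in the other 10 libraries. The 13 genes of a glucose-repressed list, which are silent while glucose lasts, summed to 16650 to 21120 TPM in the controls, 15880 to 22550 at 1 µg/mL, 6931 to 21080 at 2 µg/mL and only 160.5 to 1114 at 4 µg/mL. All 13 fell at 4 µg/mL. This fall moves with every difference given for that dose, and its part in those differences was not tested.

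Phosphoinositides are phosphorylated forms of phosphatidylinositol that mark the cytosolic face of membranes. In yeast, Stt4 makes phosphatidylinositol 4-phosphate (PI4P) at the plasma membrane and Pik1 makes it at the Golgi. Mss4 phosphorylates PI4P to PI(4,5)P2, which holds endocytic adaptors and signalling proteins at the plasma membrane, and Fab1 makes PI(3,5)P2 at the vacuole. Sac1, an enzyme of the endoplasmic reticulum, removes the phosphate of PI4P, Fig4 acts on PI(3,5)P2 in a complex with Fab1, and Inp51, Inp52 and Inp53 are relatives of animal synaptojanins that act on PI(4,5)P2. Plc1 splits PI(4,5)P2 into diacylglycerol and the inositol phosphate from which inositol polyphosphates are made.

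The phosphatases share a Sac domain, whose active site loop runs from a cysteine, written CX5R for the 5 residues of any kind that lead to an arginine. The coding bases of this loop are shown because it is what SAC1, which rose, and FIG4, which fell, have in common as enzymes. They were read from the R64 genome, 5′ to 3′ on the coding strand, and capitals mark the cysteine and arginine codons.
SAC1 (chrXI:35707-35742, plus strand): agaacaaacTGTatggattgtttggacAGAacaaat
FIG4 (chrXIV:29954-29989, minus strand): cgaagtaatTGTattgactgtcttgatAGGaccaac
INP52 (chrXIV:423134-423169, minus strand): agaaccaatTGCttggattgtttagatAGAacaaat
INP53 (chrXV:526529-526564, plus strand): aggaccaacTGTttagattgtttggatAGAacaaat
The cysteine is codon 392 of SAC1, 467 of FIG4, 446 of INP52 and 421 of INP53. INP51 gave 0 matches to the same pattern, and its Sac domain is known to lack the catalytic residues. The coding regions of INP52 and INP53 were 70.342% identical over 2222 bases, and no member had a copy elsewhere in the genome at 95% identity over at least 100 bases.

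In the control cultures the 10 genes differed in level, compared as TPM because this unit accounts for length. SAC1 was highest at 88.3 ± 8.9 TPM (SD, n = 3), followed by MSS4 at 71.4 ± 13 and PLC1 at 50.5 ± 12 TPM. PIK1 (34.3 ± 1.6 TPM) and INP51 (30.7 ± 3.8 TPM) came next. INP53 (22.0 TPM), FIG4 (19.7 TPM), FAB1 (16.4 TPM), STT4 (15.7 TPM) and INP52 (15.7 TPM) formed the low end. The ranges over the 3 controls overlapped for each pair of neighbours in this order except PLC1 with PIK1 and INP51 with INP53. Compared within each library, SAC1 was also above MSS4, MSS4 above PLC1, INP53 above FIG4 and FIG4 above FAB1 in all 3 controls. The order of PIK1 and INP51, of FAB1 and STT4 and of STT4 and INP52 changed between the controls.

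Most of the 10 genes did not pass the test at any dose. At 4 µg/mL against control, the edgeR quasi-likelihood test with Benjamini-Hochberg adjustment over all 5909 genes called 3 of 10 members, SAC1 higher and FIG4 and PLC1 lower. In the same comparison 42.2% of all genes were called, 19.3% higher and 23% lower, so the members' share was not above the background. Their median log2 fold change was -0.02, beside -0.0392 over all genes. Libraries of the 2 groups did not overlap for 2 members that were higher (SAC1 and INP53) and 2 that were lower (FIG4 and PLC1), against 27.4% and 31.7% of all genes. The remaining 7 members had estimates between -0.18 and 0.26 on the log2 scale.

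At 2 µg/mL edgeR called 0 of 10 members against control, with 1 (FIG4) at an unadjusted p under 0.05. DESeq2 called 0 and limma-voom 1, again FIG4, in a fit that called 21.7% of all genes. At 1 µg/mL edgeR, DESeq2 and limma-voom each called 0, and FIG4 alone had an unadjusted p under 0.05. Over all genes edgeR also called 0 at both doses (0%), with 9.7% and 9.07% at an unadjusted p under 0.05. The libraries of 3 members (FIG4, PIK1 and INP51) lay wholly below the controls at 1 µg/mL and those of 1 (FIG4) at 2 µg/mL, beside 8.53% and 9.19% of all genes. All doses were set against the same 3 control libraries.

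**Figure D1:**
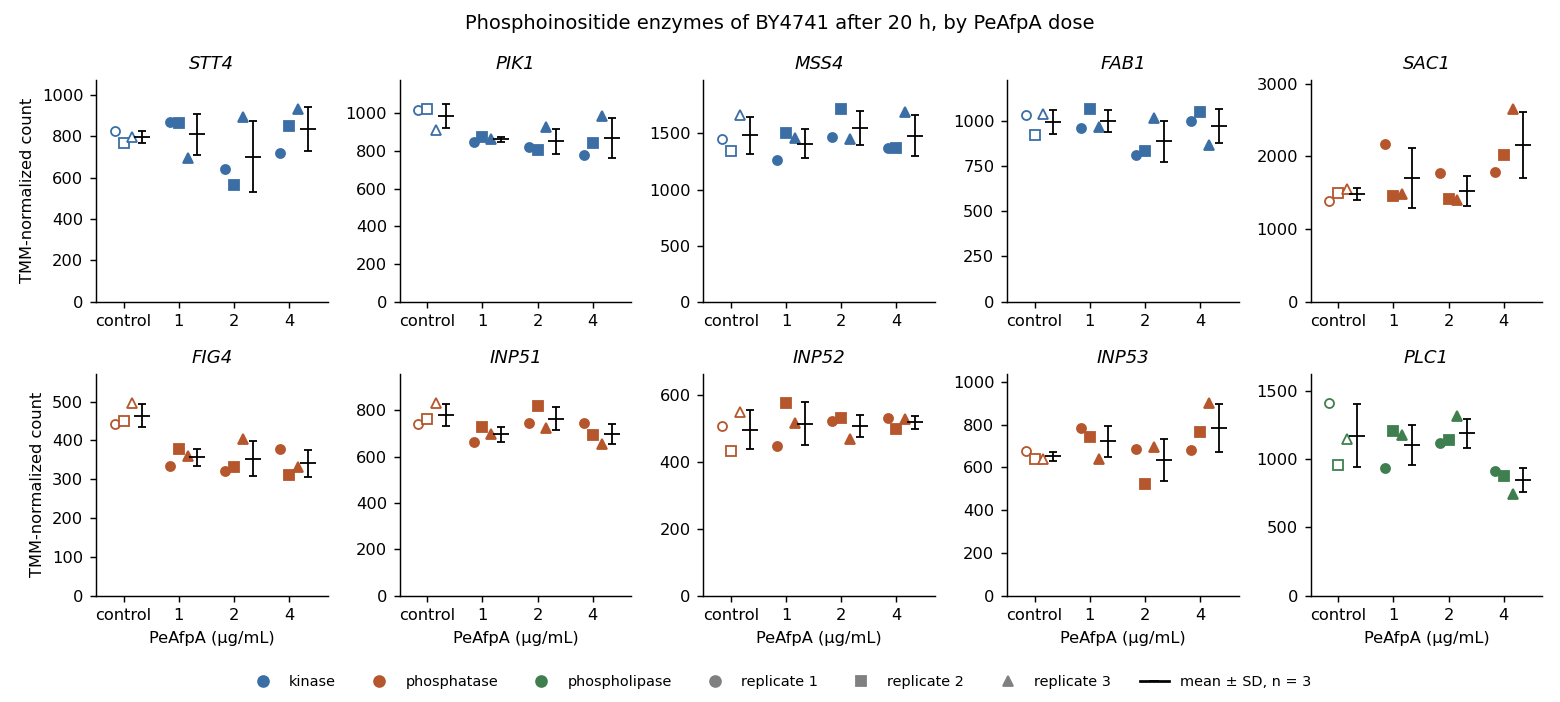
TMM-normalized counts (y axis, linear from 0) of the 10 genes by PeAfpA dose in µg/mL (x axis); each point is 1 library, open in the controls, shapes are replicate numbers, and bars are the mean ± SD of 3. FIG4 lay below all controls at each of the 3 doses, whereas SAC1 and PLC1 left the control range in all 3 libraries only at 4 µg/mL.

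The main edgeR test called none of the 4 kinase genes at any dose against control, and alternative fits called only PIK1, at 4 µg/mL. STT4, the plasma membrane PI 4-kinase, had normalized counts of 826.1, 770.2 and 795.7 in the controls and 721.1, 852.9 and 934.7 at 4 µg/mL. These libraries overlapped, and the log2 fold change was 0.07 (95% interval -0.30 to 0.44, adjusted p = 0.77). At 2 µg/mL its 3 libraries were at 643.7, 564.7 and 894.3, the widest spread of any kinase, with a standard deviation of 24.6% of the mean.

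PIK1, the essential Golgi PI 4-kinase, was at 1018.8, 1024.3 and 909.2 in the controls. It was at 848.5, 874.4 and 864.0 at 1 µg/mL, where all 3 libraries lay below all controls, and at 778.2, 842.0 and 983.2 at 4 µg/mL, where they overlapped. The 4 µg/mL difference was -0.18 (interval -0.44 to 0.08, adjusted p = 0.24). PIK1 was called in 2 of 21 alternative fits, with library size alone (-0.39, adjusted p = 0.035) and with limma-voom (-0.21, adjusted p = 0.046). These fits called 39.3% and 58.8% of all genes. In TPM it was 33.0 to 36.1 in the controls and 23.8 to 25.7 at 4 µg/mL.

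MSS4, the only kinase for PI4P in yeast, had 1451.3, 1340.1 and 1665.5 normalized counts in the controls and 1374.7, 1373.6 and 1696.0 at 4 µg/mL. The estimate was 0.00 with an interval of -0.32 to 0.31, which leaves room for changes up to that size. FAB1, the vacuolar PI3P kinase, was at 1030.8, 919.7 and 1037.4 in the controls and 1000.8, 1047.8 and 865.9 at 4 µg/mL, a log2 fold change of -0.04 (-0.31 to 0.24). Its libraries at all doses lay between 810.1 and 1068.0.

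SAC1, the PI4P phosphatase, was the one member that rose. Its normalized counts were 1390.2, 1495.6 and 1545.6 in the controls and 1783.8, 2019.8 and 2655.0 at 4 µg/mL. All 3 treated libraries lay above all controls, and the highest was the library that stands apart. SAC1 was at 2173.7, 1452.4 and 1474.0 at 1 µg/mL and at 1766.5, 1413.5 and 1401.9 at 2 µg/mL. The high value at 1 µg/mL came from the other library that stands apart. Replicate 1 at 2 µg/mL, with an ordinary TMM factor of 1.021, was also above all controls and close to the lowest library at 4 µg/mL. It had the lowest glucose-repressed sum of its dose, at 6931 TPM beside 11290 and 21080 in replicates 2 and 3. The other 4 libraries at 1 and 2 µg/mL lay between 1401.9 and 1474.0, within the control range. The mean went from 1477 ± 79.3 to 2153 ± 451 (SD, n = 3), a 1.46-fold rise with a log2 fold change of 0.54 ± 0.19 (SE, 95% interval 0.12 to 0.96, edgeR adjusted p = 0.040). Without both libraries that stand apart it was 0.38 (adjusted p = 0.042). The differences at 1 µg/mL (0.20) and 2 µg/mL (0.05) did not pass, and neither did 4 against 2 µg/mL (0.49, adjusted p = 0.065).

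The SAC1 call depends on the scaling. The TMM factor of a library raises or lowers all of its genes together, and with library size alone the median of all genes at 4 µg/mL moved from -0.04 to -0.24. The share of called genes that were higher then moved from 45.6% to 32.5%. On that scale SAC1 was at 0.32 (adjusted p = 0.11) and no longer called, still above the median of all genes. In TPM it was 82.3 to 98.5 in the controls and 97.3 to 110 at 4 µg/mL, which overlap. The call was also lost when 1 library was left out, for each control (adjusted p 0.11, 0.085 and 0.077 without replicates 1, 2 and 3), replicates 2 (0.062) and 3 (0.15) of 4 µg/mL and replicate 2 of 2 µg/mL (0.05).

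FIG4, the vacuolar PI(3,5)P2 phosphatase, was lower at every dose. The controls had 442.7, 450.4 and 497.2 normalized counts. At 1 µg/mL FIG4 was at 334.1, 377.1 and 359.1, at 2 µg/mL at 320.8, 332.7 and 404.0, and at 4 µg/mL at 378.6, 312.3 and 331.6. All 9 treated libraries lay below the lowest control. Since the 3 doses share their controls, this is not 3 separate observations. The log2 fold changes against control were -0.38 (adjusted p = 0.49), -0.39 (adjusted p = 0.44) and -0.44 ± 0.14 (SE, adjusted p = 0.024, 95% interval -0.75 to -0.14) at 1, 2 and 4 µg/mL, so that only the last passed. The mean fell from 463.4 ± 29.5 to 340.8 ± 34.1 at 4 µg/mL, 0.736 of the control. Between doses FIG4 differed little, by -0.05 for 4 against 2 µg/mL and -0.07 for 4 against 1 µg/mL, neither called. The call at 4 µg/mL was lost without replicate 3 of the controls (adjusted p = 0.082) and without replicate 2 (0.089) or 3 (0.075) of 4 µg/mL. Without both libraries that stand apart it was -0.41 (adjusted p = 0.046).

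The 3 synaptojanin-like genes were not called against control. INP51 had 742.8, 761.2 and 832.3 normalized counts in the controls and 743.0, 692.2 and 655.5 at 4 µg/mL, a difference of -0.16 (interval -0.40 to 0.08). At 1 µg/mL its libraries, at 663.7, 729.4 and 696.1, all lay below the controls. INP52 was nearly level, with 505.7, 432.4 and 547.5 in the controls and 529.9, 496.4 and 527.9 at 4 µg/mL. Its estimate was 0.06 (-0.23 to 0.36). INP53, which acts in traffic between the Golgi and endosomes, was at 677.0, 639.7 and 639.1 in the controls and at 681.2, 767.1 and 902.9 at 4 µg/mL. All 3 treated libraries were above the controls, the lowest by a small margin, but the difference of 0.26 did not pass (-0.06 to 0.58, adjusted p = 0.16).

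PLC1, the only phosphoinositide-specific phospholipase C of yeast, fell at 4 µg/mL alone. Normalized counts were 1411.5, 959.5 and 1143.6 in the controls, a spread of 19.4% of the mean. They were 934.3, 1202.9 and 1174.5 at 1 µg/mL and 1118.8, 1136.5 and 1312.1 at 2 µg/mL, within or close to the control range. At 4 µg/mL they were 915.2, 877.2 and 746.0, all below the lowest control. The mean fell from 1172 ± 227 to 846.1 ± 88.8, 0.723 of the control, with a log2 fold change of -0.47 ± 0.16 (SE, interval -0.82 to -0.12, edgeR adjusted p = 0.035). It was also the one member called between 4 and 2 µg/mL, at -0.49 ± 0.16 (adjusted p = 0.035), where 34.1% of all genes were called, 18.7% lower. Against 1 µg/mL the difference was -0.38 (adjusted p = 0.095).

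For PLC1 the control spread matters. Without replicate 1 of the controls, the highest library, the change was -0.31 (adjusted p = 0.15), and the call was also lost without replicate 3 of the controls (0.070) and replicates 2 (0.067) and 3 (0.14) of 4 µg/mL. Without both libraries that stand apart it was -0.37 (adjusted p = 0.080). The PLC1 call was lost as well in the edgeR fit of only the 2 groups compared, which left out none of their libraries. With exact permutation tests of 3 against 3 libraries, 0.1 was the smallest two-sided p possible, and SAC1, FIG4, INP53 and PLC1 reached it at 4 µg/mL. At this group size, reaching 0.1 is the same as libraries that do not overlap, so it adds nothing to that count. Of all genes, 27.4% did not overlap as higher and 31.7% as lower.

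**Figure D2:**
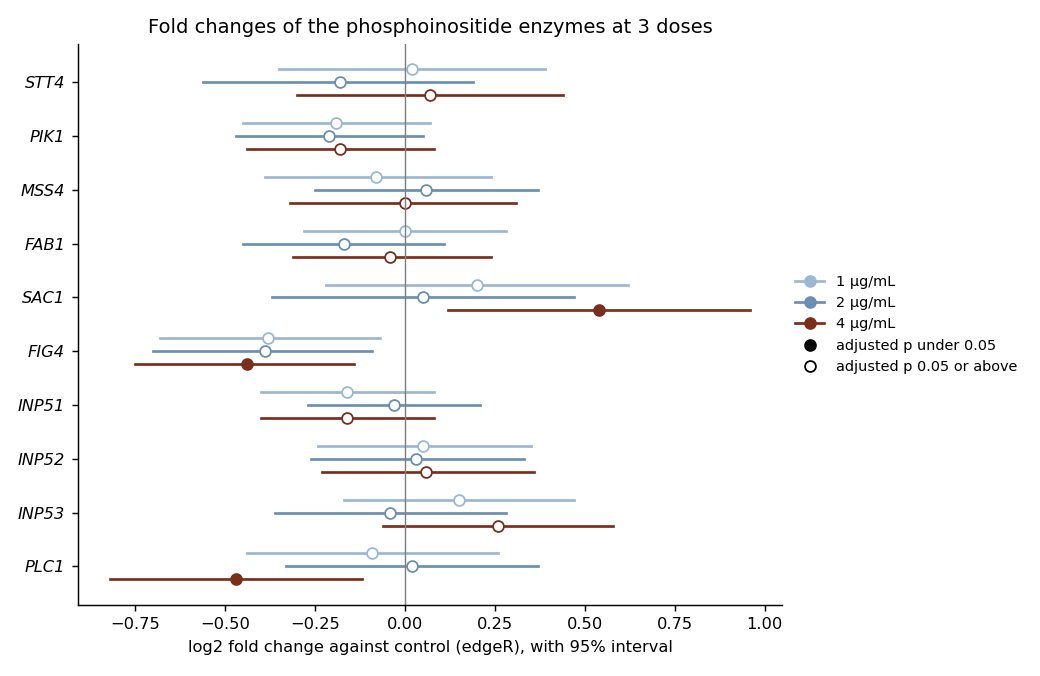
Log2 fold changes against control (x axis) of the 10 genes (y axis) at 1, 2 and 4 µg/mL PeAfpA, with 95% intervals from edgeR; filled points have an adjusted p under 0.05. Only SAC1 (0.54), FIG4 (-0.44) and PLC1 (-0.47) at 4 µg/mL are filled, and the FIG4 estimates at the lower doses (-0.38 and -0.39) are close to that at 4 µg/mL with open points.

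**Figure D3:**
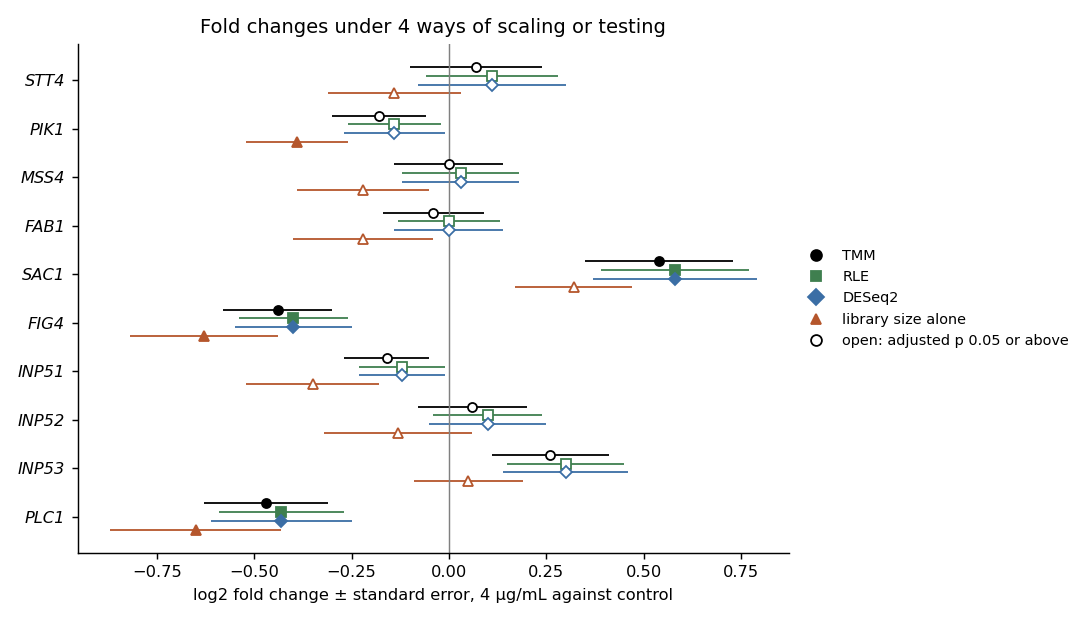
Log2 fold changes ± SE at 4 µg/mL against control (x axis) for the 10 genes (y axis) with TMM factors, RLE factors, DESeq2 and library size alone; filled points have an adjusted p under 0.05. Library size alone shifts all 10 genes down: SAC1 goes from 0.54 to 0.32 and loses its call, PIK1 goes from -0.18 to -0.39 and gains one, and FIG4 and PLC1 are filled in all 4.

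Neither edgeR nor DESeq2 called any member between 4 and 1 µg/mL, where edgeR called 26.4% of all genes, or between 2 and 1 µg/mL, where it called 0%. At an unadjusted p under 0.05 there was 1 member in the first comparison and 0 in the second, beside 41.3% and 3.23% of all genes. limma-voom called SAC1 and PLC1 in the first, where it called 3639 of the 5909 genes, and FAB1 in the second, where it called 611.

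Over the 12 libraries the members did not share one profile. The pair with the most similar profiles was MSS4 and INP52, with a root mean square difference of 0.104 between their centred log2 CPM values, followed by STT4 and INP53 at 0.123. In the whole table, the profiles nearest to SAC1 were those of GCN20 (0.058) and SER33 (0.078), nearest to FIG4 those of MNT3 (0.078) and PRP24 (0.084), and nearest to PLC1 those of SIR4 (0.097) and MTC5 (0.104). The ranges of SAC1, FIG4 and PLC1 over the libraries were 0.93, 0.67 and 0.92 on the same scale.

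Some single genes around the 10 enzymes had larger differences than any of the enzymes, in 5 lists of 62 genes that were all tested. The largest differences among 62 genes can exceed those among 10 by number alone. Over all genes the median absolute log2 fold change at 4 µg/mL against control was 0.4481. At 4 µg/mL edgeR called 23 of these 62, a share below the 42.2% of all genes. At 2 µg/mL it called 0, with 5 at an unadjusted p under 0.05, and at 1 µg/mL 0, with 7. DESeq2 called 0 at both of these doses, and limma-voom called 16 at 2 µg/mL, where it called 21.7% of all genes, and 0 at 1 µg/mL.

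The list of phosphatidylinositol synthesis and inositol supply had 3 of 10 genes higher and 1 lower at 4 µg/mL, beside 19.3% and 23% of all genes, with a median log2 fold change of 0.38. ITR1, the main transporter of inositol into the cell, had 9306.2, 6710.6 and 5915.8 normalized counts in the controls and 20213.0, 27296.6 and 25436.8 at 4 µg/mL, a 3.33-fold rise (log2 1.73 ± 0.36 SE, adjusted p = 0.0036). PIS1, the phosphatidylinositol synthase, rose 3.04-fold, from 456.6, 611.8 and 724.3 to 1593.5, 2034.2 and 1819.7 (log2 1.60 ± 0.18, adjusted p = 0.00013). At the lower doses the 6 PIS1 libraries lay between 459.2 and 645.7, within the control range, so the rise was seen at 4 µg/mL alone. CDS1, which makes the CDP-diacylglycerol that Pis1 uses, rose 1.76-fold (adjusted p = 0.0042), from a mean of 1392 to 2452. INM2, an inositol monophosphatase, fell from 905.9 to 537.2 (log2 -0.75, adjusted p = 0.0050). ITR1, PIS1, CDS1 and INM2 were called in 21 of 21 alternative fits.

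INO1, the inositol synthase, is given although it was not called, and was chosen after its values were seen. It was at 7783.5, 5438.2 and 3160.7 in the controls and 10429.5, 14052.6 and 11031.9 at 4 µg/mL, above all controls, at a log2 fold change of 1.12 (adjusted p = 0.12). Its highest library was replicate 1 at 1 µg/mL, at 32639.0, where ITR1 also stood at 22525.4 beside 9022.9 and 9356.4 in the other two replicates. In that library PIS1 was at 594.7, level with the controls.

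**Figure D4:**
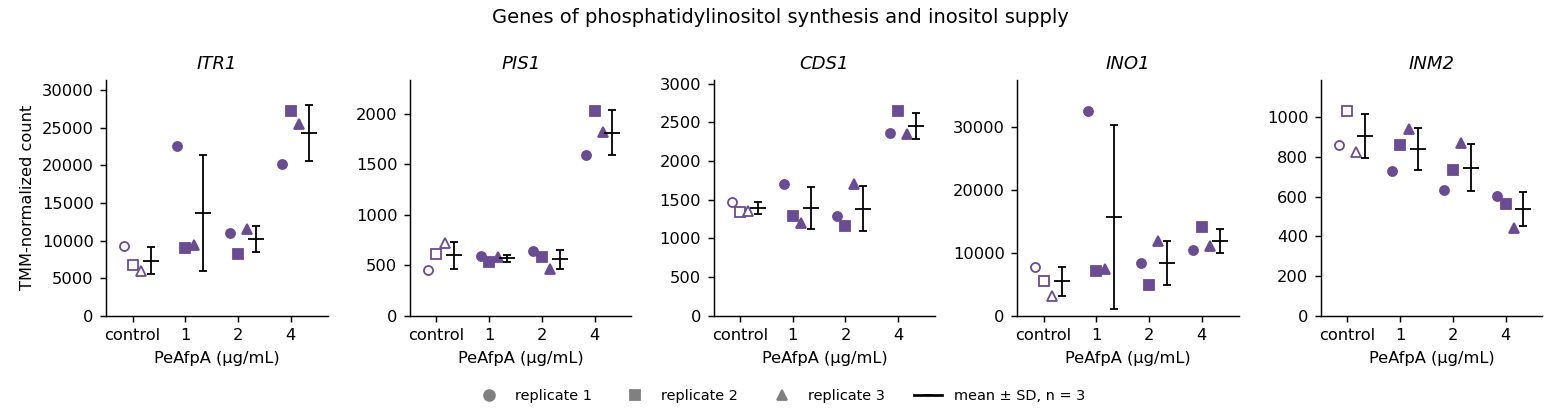
TMM-normalized counts (y axis, linear from 0) of ITR1, PIS1, CDS1, INO1 and INM2 by PeAfpA dose (x axis, µg/mL); points are libraries, shapes are replicate numbers, and bars are the mean ± SD of 3. PIS1 is at 456.6 to 724.3 in the controls and 1593.5 to 2034.2 at 4 µg/mL, while ITR1 and INO1 are also high in replicate 1 at 1 µg/mL.

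Genes of inositol supply are known to carry the element UASINO, bound by Ino2 and Ino4. It was searched as CATGTGAA on both strands in the 300 bases before the start codon. It occurred in 54 of 6001 such windows (0.9%), in 0 of the 10 members and in 5 of the 10 synthesis genes (ITR1, CDS1, INO1, INO2 and INO4). ITR1 had a pair of matches, at bases 221 to 214 and 284 to 277 before the start codon, and CDS1 had 1 at 162 to 155. PIS1, which rose as well, and INM2, which fell, had none. INO1, INO2 and INO4 had matches but were not called at 4 µg/mL against control. Their log2 fold changes were 1.12, 0.37 and 0.38 (edgeR adjusted p = 0.12, 0.12 and 0.081). The windows of the 4 synthesis genes and 3 members that were called are shown from 300 to 101 bases before the start codon, 5′ to 3′ on the coding strand of R64, with matches on either strand in capitals.
ITR1 (chrIV:1445568-1445767, minus strand): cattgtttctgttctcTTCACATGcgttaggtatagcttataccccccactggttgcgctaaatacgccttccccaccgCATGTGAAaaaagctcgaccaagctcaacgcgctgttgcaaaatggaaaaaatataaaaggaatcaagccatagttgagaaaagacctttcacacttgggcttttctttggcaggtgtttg
CDS1 (chrII:297843-298042, minus strand): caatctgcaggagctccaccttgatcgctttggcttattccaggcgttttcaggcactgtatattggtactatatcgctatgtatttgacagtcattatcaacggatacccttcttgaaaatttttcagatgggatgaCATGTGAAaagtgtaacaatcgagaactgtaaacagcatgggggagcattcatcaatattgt
PIS1 (chrXVI:751957-752156, plus strand): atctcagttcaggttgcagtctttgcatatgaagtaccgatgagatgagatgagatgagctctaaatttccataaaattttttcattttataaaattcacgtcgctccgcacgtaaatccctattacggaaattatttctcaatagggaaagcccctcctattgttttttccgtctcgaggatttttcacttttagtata
INM2 (chrIV:1035695-1035894, plus strand): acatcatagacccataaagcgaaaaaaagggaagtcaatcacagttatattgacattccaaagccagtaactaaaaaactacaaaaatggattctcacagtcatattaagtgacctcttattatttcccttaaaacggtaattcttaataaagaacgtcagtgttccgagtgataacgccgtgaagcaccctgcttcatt
SAC1 (chrXI:34243-34442, plus strand): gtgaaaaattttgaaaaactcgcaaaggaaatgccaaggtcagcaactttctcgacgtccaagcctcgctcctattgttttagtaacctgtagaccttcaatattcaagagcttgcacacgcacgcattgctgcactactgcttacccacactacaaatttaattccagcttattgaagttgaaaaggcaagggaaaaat
FIG4 (chrXIV:31479-31678, minus strand): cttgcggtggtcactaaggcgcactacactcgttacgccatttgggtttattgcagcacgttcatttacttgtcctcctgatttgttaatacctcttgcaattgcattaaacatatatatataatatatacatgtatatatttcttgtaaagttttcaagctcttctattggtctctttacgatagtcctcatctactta
PLC1 (chrXVI:34936-35135, plus strand): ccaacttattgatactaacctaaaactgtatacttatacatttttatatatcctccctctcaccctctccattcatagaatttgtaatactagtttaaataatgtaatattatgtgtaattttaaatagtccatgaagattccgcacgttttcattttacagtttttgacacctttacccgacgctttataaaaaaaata
The match is a description of letters in the genome, and binding was not measured.

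The list of lipid kinase subunits, regulators and other phosphoinositide enzymes had 1 of 15 genes higher and 3 lower at 4 µg/mL, fewer than the 42.2% called over all genes, with a median of -0.13. SFK1, a plasma membrane protein that works with Stt4, rose 2.48-fold, from 271.4, 302.9 and 359.8 to 740.1, 727.4 and 853.1 (adjusted p = 0.0046), while STT4 itself was at 0.07. ATG14, a subunit of the lipid kinase complex of autophagy, fell to 0.483 of the control (log2 -1.05, adjusted p = 0.0081). LSB6, a further PI 4-kinase that is not essential, fell from 937.3, 821.0 and 993.4 to 543.2, 478.3 and 476.9 (log2 -0.88, adjusted p = 0.0039). IRS4, known as a regulator of Inp51, fell by 0.73 on the log2 scale (adjusted p = 0.012), a call lost without replicate 3 of 4 µg/mL (-0.65, adjusted p = 0.053). Without both libraries that stand apart the list had 1 higher and 6 lower, beside 1079 and 1249 of all 5909 genes.

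Of 6 genes for inositol polyphosphate kinases and phosphatases, the route downstream of Plc1, 1 was higher and 0 were lower (19.3% and 23% of all genes), with a median of 0.01. VIP1, which makes inositol pyrophosphates, rose 1.54-fold, from 1580.0, 1272.4 and 1283.7 to 1810.4, 2059.5 and 2504.5 (adjusted p = 0.0091). PLC1 and VIP1 thus had changes of opposite sign, but the list as a whole did not move one way. Of its 6 estimates, 3 were above 0 and 3 below. The lowest was that of ARG82, at -0.49 (edgeR adjusted p = 0.053, not called).

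The list of phosphatidylinositol transfer proteins, oxysterol-binding proteins and proteins that hold Sac1 in place had 16 genes. At 4 µg/mL 4 were higher and 3 lower, near the 19.3% and 23% of all genes, with a median of 0.22. The 16 include SFH1 (YLR321C), a chromatin remodelling gene and not a transfer protein, which was at 0.06 and not called. SEC14, the essential phosphatidylinositol transfer protein of the Golgi, rose 1.81-fold, with 1216.1, 1185.7 and 1188.5 in the controls and 1670.5, 1930.4 and 2898.6 at 4 µg/mL (adjusted p = 0.0082). VPS74, a PI4P-binding Golgi protein that interacts with Sac1, rose 1.68-fold (adjusted p = 0.011). SWH1 and OSH2, oxysterol-binding homologues that carry a PI4P-binding domain, fell to 0.477 (adjusted p = 0.0017) and 0.516 (adjusted p = 0.0031) of the control. Their family did not move one way. KES1 rose (log2 0.63, edgeR adjusted p = 0.0066) and OSH7 fell (-0.55, adjusted p = 0.01). The other oxysterol-binding homologues of the list were not called. DESeq2 called 6 higher and 3 lower in this list, beside 1363 and 1343 of all 5909 genes.

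The 15 phosphoinositide-binding effectors had 0 genes higher and 7 lower, with a median of -0.44, and 23% of all genes were lower in the same test. SLA2, an adaptor that links PI(4,5)P2 and clathrin coats to actin, fell from 2660.0, 2668.3 and 3173.5 to 1739.0, 1664.2 and 1251.0 (log2 -0.87, adjusted p = 0.015). YAP1801, a clathrin assembly protein of the AP180 kind, fell by 0.86 on the log2 scale (adjusted p = 0.0075), and SLM1, a PI(4,5)P2-binding target of the TORC2 kinase, by 0.69 (adjusted p = 0.019). ENT3, an epsin-like adaptor of the Golgi and endosomes, fell by 0.60 (adjusted p = 0.013). The calls of SLA2 and SLM1 were lost without replicate 3 of the controls (adjusted p = 0.056 and 0.074). Without replicate 3 of 4 µg/mL, 5 of the 7 calls were lost, among them SLA2 (0.066), SLM1 (0.080) and ENT3 (0.057). Without both libraries that stand apart the list had 0 higher and 8 lower, in a fit with 1249 of all 5909 genes lower. With library size alone it had 0 and 9, where 1569 of 5909 were lower and the median of all genes was -0.24. MSS4, which makes the lipid that several of these proteins bind, was at 0.00.

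**Figure D5:**
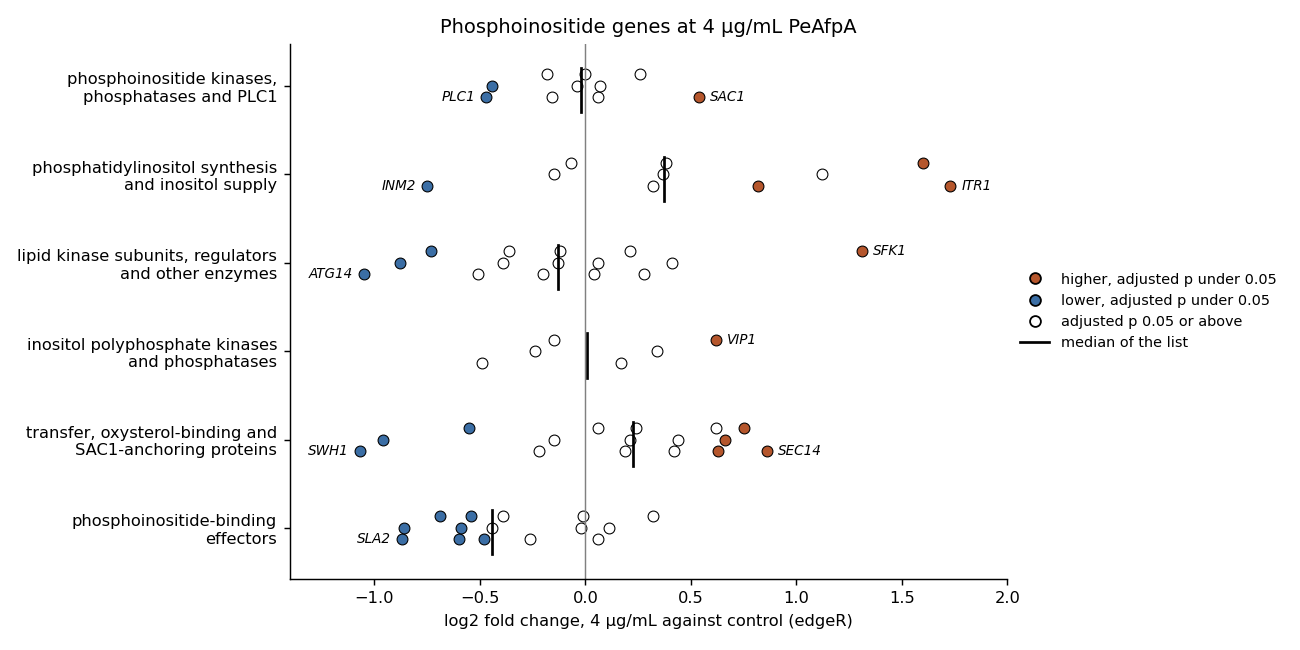
Log2 fold changes at 4 µg/mL against control (x axis) of the 10 enzymes and of 5 lists of related genes (rows); each point is 1 gene, coloured where the adjusted p was under 0.05, and black lines are list medians. The 10 enzymes lie between -0.47 (PLC1) and 0.54 (SAC1). The lists, with 62 genes and so more room for extremes, lie between -1.07 (SWH1) and 1.73 (ITR1), with medians of 0.38 for synthesis and supply and -0.44 for effectors.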

How the data were processed

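The deposited table holds counts that the authors made per gene, without normalization, for 6600 features and 12 single-end libraries. They trimmed reads with Trimmomatic 0.39, mapped them with Bowtie2 2.3.2 to the S288C genome (R64) and counted them with HTSeq 0.9.0. The kit (TruSeq v2) does not mark strand, and the counting settings for strand and overlap are not given in the sources used here. In the reference annotation, which names 5917 of the features, none of the 10 genes overlaps another. The other 683 features, with at most 0.323% of the counts of a library, could not be checked.

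Features averaging 1 TPM or more, or 1 CPM or more if the annotation gave no length, were kept, TMM factors were computed, and the 4 conditions were fitted together with the quasi-likelihood F test of edgeR 4.0.16 (R 4.3.3). A gene is called when its p, adjusted by Benjamini-Hochberg across 5909 genes, is under 0.05. The standard error is the log2 fold change over the square root of F. Normalized counts are scaled to the mean effective library size of 8975252. Over all genes together, the mean squared difference between 2 replicates was 13.7 to 203 times the variance expected from counting. Alternatives were DESeq2 1.42.0, limma 3.58.1 (voom, with quality weights per sample), other filters, factors and designs, each library left out, and, added after seeing the data, both libraries that stand apart left out. The scripts were tested on simulated data. Copies were searched with blastn 2.17.0.

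The members and lists were chosen with earlier results of these data known. Named are all 10 members, in each list up to 4 called genes with the largest change at 4 µg/mL, and for each called member the 2 nearest profiles (log2 CPM with a prior count of 2). ARG82, KES1 and OSH7 are named besides, after their values were seen. UASINO and the Sac loop were chosen after the values were seen. Not every phosphoinositide gene is reported here.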

Additional observations from a re-analysis of the deposited data

Results flagged for a closer look

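PLC1 is listed because its level differed between 2 PeAfpA doses, which were compared directly with each other. It was lower at 4 µg/mL (915.2, 877.2 and 746.0 normalized counts) than at 2 µg/mL (1118.8, 1136.5 and 1312.1), by -0.49 on the log2 scale (edgeR adjusted p = 0.035), in 3 of 3 libraries. The call held in 13 of 21 alternative fits, over which the adjusted p ranged from 0.0045 to 0.13. It was lost with library size alone (-0.61, adjusted p = 0.055), without replicate 2 or 3 of 4 µg/mL (adjusted p = 0.069 and 0.13), without replicate 1, 2 or 3 of 2 µg/mL (0.063, 0.069 and 0.089) and without both libraries that stand apart (-0.40, adjusted p = 0.067).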

How the results depend on the processing

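Log2 fold changes of SAC1, FIG4 and PLC1 at 4 µg/mL against control kept their sign in all 21 alternatives, at 0.32 to 0.66 (called in 13), -0.63 to -0.38 (called in 18) and -0.65 to -0.31 (called in 14), and no called member reversed; the cause of lost calls was not tested. The replicate number was tried as a block. Of 18 pairs of libraries with the same number, 6 had a correlation of deviations over 0.1 (range -0.366 to 0.247), and 2 of 12 libraries correlated best with their own number, so the numbers do not pair the samples. With the replicate block, 1 member (FIG4) was called at 4 µg/mL against control, with SAC1 at an adjusted p of 0.059 and PLC1 at 0.062, and 0 at 4 against 2 µg/mL.

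With 1 library left out, members called numbered 0 to 3 at 4 µg/mL against control (3 with all libraries, 0 without control replicate 3, 4 µg/mL replicate 2 or 4 µg/mL replicate 3), 0 to 2 at 4 against 2 µg/mL (1 with all) and 0 to 2 at 4 against 1 µg/mL (0 with all, 2 without 1 µg/mL replicate 1). limma-voom called 4 members at 4 µg/mL against control (PIK1 added), 1 at 2 µg/mL against control, 4 at 4 against 2 µg/mL, 2 at 4 against 1 µg/mL and 1 at 2 against 1 µg/mL. At 4 against 2 µg/mL, DESeq2 called 2 members (39.4% of all genes), library size alone 0 (28.1%) and the fit without both libraries that stand apart 0 (33.3%).

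Over all genes, leaving out 1 library gave 1491 to 2783 calls at 4 µg/mL against control (2496 with all), 0 to 131 calls at 2 µg/mL against control (0 with all), 0 to 0 calls at 1 µg/mL against control (0 with all), 905 to 2486 calls at 4 against 2 µg/mL (2014 with all), 591 to 2528 calls at 4 against 1 µg/mL (1559 with all), 0 to 6 calls at 2 against 1 µg/mL (0 with all). Against control, limma-voom called 1281 genes at 2 µg/mL and 2 at 1 µg/mL, and between doses 3462 at 4 against 2 µg/mL, 3639 at 4 against 1 µg/mL and 611 at 2 against 1 µg/mL. DESeq2 called 34 (2 µg/mL) and 4 (1 µg/mL) against control, and 1 between these doses. Fits of only the 2 groups compared called 23 (2 µg/mL, control) and 472 (4 µg/mL, 1 µg/mL), and the fit without both libraries that stand apart called 57 at 2 µg/mL against control.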
